A study of Homo sapiens with 16 samples.

Results

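The question was whether 2 breast cancer cell lines answered the same change in glucose with the same genes or with opposite ones. MDA-MB-231 and MDA-MB-468, both established human lines without the estrogen receptor, were kept for 48 hours at 5 mM glucose (low glucose) or at 25 mM (high glucose), with 4 samples in each of the 4 groups. The response of a gene in a line was its mean in high glucose minus its mean in low glucose on the scale log2(normalized reads + 1), and the difference of responses was the MDA-MB-468 response minus the MDA-MB-231 response. All 16 samples entered. Genes were kept where at least 2 of the 8 samples of each line reached 0.5 CPM (reads scaled to the size of the library), which left 13573 of 18332 genes. A gene silent in all samples of a line could therefore not count as a difference. However, a gene could pass in a line through a single glucose group and be near silent in the other. The genes left out were 1311 that passed in MDA-MB-231 alone, 2184 that passed in MDA-MB-468 alone and 1264 that passed in neither.

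The methods of the study limit how far the lines can be compared. Each group is a single cell line, so the comparison is between 2 lines and not between classes of tumor. MDA-MB-231 was maintained in DMEM and MDA-MB-468 in RPMI, so the maintenance medium and the line cannot be told apart. The base medium of each line during the 48 hours is not stated for these cultures. The low and high glucose media among the paper's reagents are DMEM. Glucose was raised in medium without serum after conditioning in low glucose, which the controls shared. No osmolarity control is among the 4 groups. The labels do not say that the 4 samples of a group came from separate cultures, so the p-values measure the spread between these samples, which may be technical.

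Glucose is both a fuel and a signal. Cells that divide copy their DNA with a set of genes switched on by E2F factors and then separate it with mitotic kinases, kinesins and kinetochore proteins, and these genes rise and fall together with the share of cells that are cycling. When amino acids are short or the endoplasmic reticulum is under stress, translation slows and the factor ATF4 turns on amino acid transporters, amino acid synthesis and tRNA synthetases. SREBP factors turn on cholesterol and fatty acid synthesis, and NF-kB turns on cytokines, adhesion molecules and its own inhibitors. These programs are commonly studied in estrogen receptor negative breast cancer cells, where they bear on growth, nutrient use and inflammation.

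The libraries held between 14094597 and 24425916 reads, so 3 reads, taken as the floor for counting error alone, stood for 0.123 to 0.213 CPM. The chi-square per gene between replicate pairs exceeded what counting alone gives. Low-glucose MDA-MB-231 replicate 4 stood apart, at 5.09, 3.86 and 5.24 from its partners, which differed by 2.14 to 2.71 among themselves, and pairs in the other groups ran from 2.05 to 4.36. The SD of a library's log2 values around the mean of its 3 partners ran from 0.313 to 0.353 over all 16 samples. Without that replicate 5357 differences of responses and 603 opposite genes were called, where all 16 samples gave 5183 and 575. Opposite calls then numbered 27 in the mitosis list, 18 in replication, 8 in sterol synthesis and 16 in the ATF4 list, against 26, 17, 7 and 16. The line labels matched their marker genes. VIM, the mesenchymal filament protein vimentin, averaged 96228 normalized reads in low-glucose MDA-MB-231 and 21.5 in low-glucose MDA-MB-468. KRT5, a basal keratin, averaged 1.13 and 15150, and CDH1, the epithelial cadherin, averaged 5.51 and 2007. The estrogen receptor gene ESR1 stayed at means of at most 57.9 normalized reads in every group. Among markers of other cell types, the 4 immune markers in the table were low in MDA-MB-468, where they summed to 123 to 150 in low glucose and 205 to 274 in high glucose. In MDA-MB-231 the same sum was 2258 to 2493 and 2208 to 2308, nearly all of it CD68, at means of 2279 and 2146. The higher sum in high-glucose MDA-MB-468 came from CD14, at means of 94.2 and 208, and the other immune markers did not rise there. The 3 endothelial markers went the other way, since they summed to 553 to 586 in low-glucose and 447 to 508 in high-glucose MDA-MB-468, above the 211 to 281 and 233 to 274 of MDA-MB-231. These sums were nearly all KDR, at means of 556 and 450 in MDA-MB-468 and 234 and 241 in MDA-MB-231. The 6 fibroblast markers in the table summed to 581 to 637 in low-glucose and 573 to 696 in high-glucose MDA-MB-231. In MDA-MB-468 they summed to 345 to 375 and 371 to 438. Only 1 of them, POSTN, had 0 reads in all 16 samples. The summed epithelial keratin and adhesion markers were also higher in high-glucose MDA-MB-468, at 89800 to 97595 against 74666 to 79514 in low glucose, and the part of these shifts in the results was not tested.

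High glucose moved more genes in MDA-MB-468 than in MDA-MB-231, and many genes differed in response between the lines. limma called a difference of responses for 5183 genes (38.2% of those tested) at an adjusted p under 0.05. The response was higher in MDA-MB-468 for 2890 of them (21.3%) and lower for 2293 (16.9%). In MDA-MB-231 high glucose raised 764 genes (5.63%) and lowered 1286 (9.47%). In MDA-MB-468 it raised 3471 genes (25.6%) and lowered 3180 (23.4%). Of the 5183 called differences, 3585 (69.2%) were genes called in MDA-MB-468 alone and 537 (10.4%) genes called in MDA-MB-231 alone. A further 126 genes moved the same way in both lines but more in MDA-MB-468, and 46 moved the same way but more in MDA-MB-231. Neither line passed the threshold for 314.

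Opposite movement, in which both lines passed the threshold with opposite signs, was found for 575 genes, or 11.1% of the called differences. Of these, 393 genes (2.9% of all genes tested) fell in MDA-MB-231 and rose in MDA-MB-468, and 182 (1.34%) did the reverse. Of the 575, 443 (3.26% of all genes tested) had low and high glucose samples that did not overlap in either line. Counts without overlap in the lists below are read beside this share of the opposite genes. Opposite changes were mostly small, with a median difference of responses of 0.46 in size, and 14 genes moved by at least 0.5 in each line. The MDA-MB-468 response was the larger for 347 of the 575. Of the 393 genes, 79 (20.1%) were members of at least 1 of the 32 gene lists examined, as were 38 (20.9%) of the 182, against 1076 (7.93%) of all genes tested. The lists were chosen with earlier results of these data known.

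**Figure D1:**
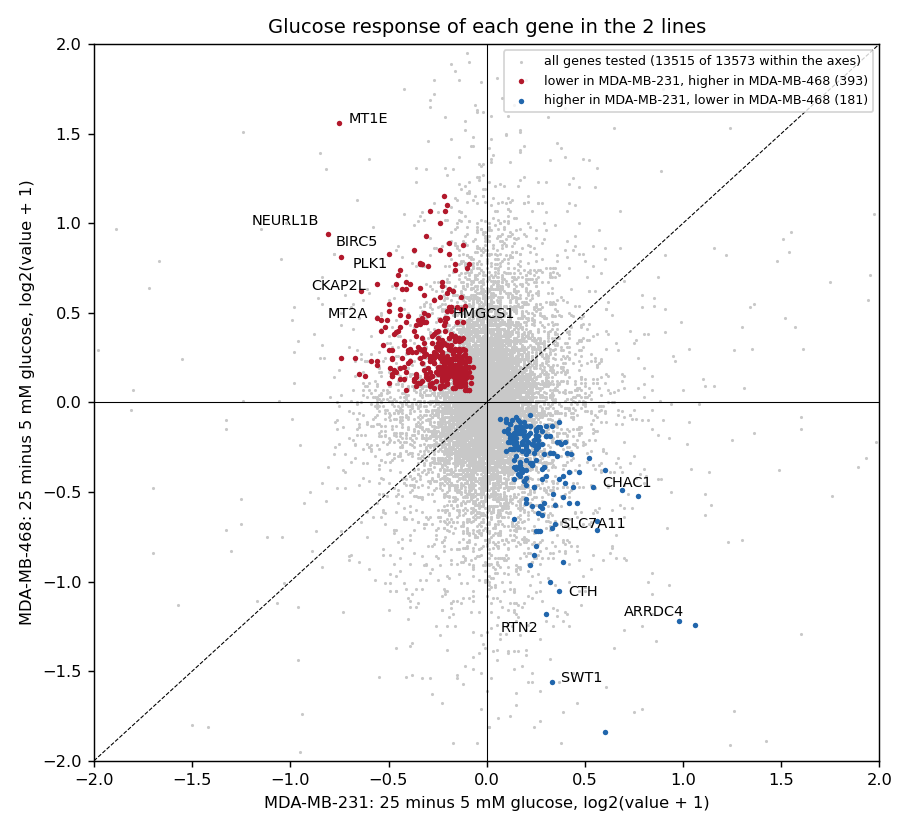
Glucose response of each gene, with the MDA-MB-231 response on the x axis and the MDA-MB-468 response on the y axis, both as 25 minus 5 mM glucose on log2(value + 1). Grey points are all genes tested that lie within the axes (13515 of 13573), red points the 393 genes lower in MDA-MB-231 and higher in MDA-MB-468, and blue points 181 of the 182 genes that moved the other way. The dashed diagonal marks equal responses, and the colored points fill the upper left and lower right of the plot.

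The lists that held the most opposite genes fell into 2 sets. Many cell division, DNA replication, sterol synthesis and RNA splicing genes fell in MDA-MB-231, and some of these rose in MDA-MB-468. Such opposite calls made up 35.6%, 27%, 25% and 32.4% of these lists, against 2.9% of all genes. As whole lists, mitosis and replication genes moved little in MDA-MB-468, with medians of 0.03 and -0.04, and 19 replication genes rose there while 20 fell. Members of the ATF4 amino acid response rose in MDA-MB-231 and fell in MDA-MB-468 (32.7%, against 1.34% of all genes). Genes of oxidative phosphorylation and the ribosome rose mostly in MDA-MB-468, with few calls in MDA-MB-231, and few ribosomal genes had a called difference between the lines. Over all genes tested the median response was 0.00 in each line and the median difference was 0.00, with an interquartile range from -0.21 to 0.22. Because so many genes were called in MDA-MB-468, each list is read beside the shares over all genes given above.

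**Figure D2:**
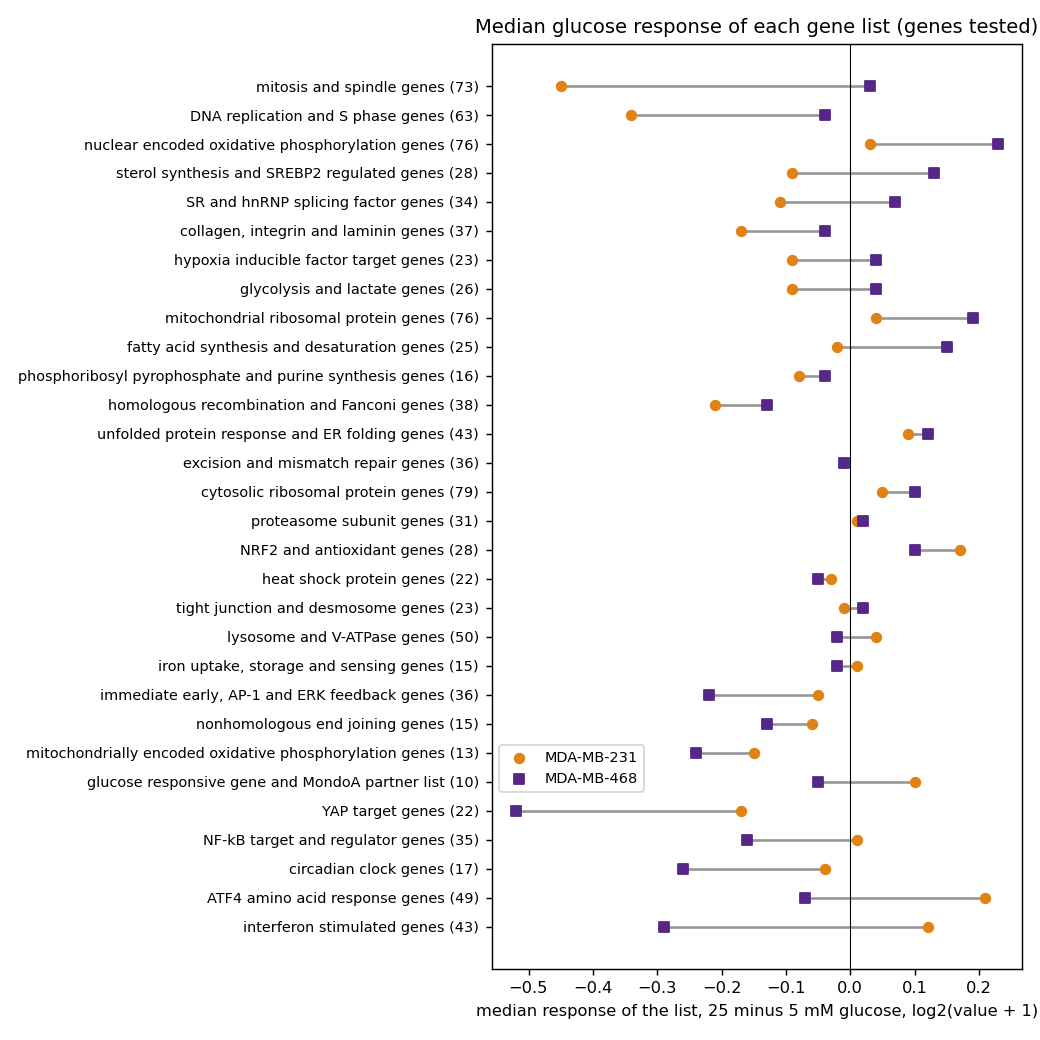
Median glucose response of 30 gene lists with at least 10 genes tested, with the number tested in brackets. The x axis is the median over the list of the response (25 minus 5 mM glucose, log2(value + 1)), orange circles are MDA-MB-231 and purple squares MDA-MB-468. The lists are ordered by the median difference between the lines. Mitosis genes had the lowest median in MDA-MB-231 (-0.45) and YAP target genes the lowest in MDA-MB-468 (-0.52).

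Mitotic genes fell in MDA-MB-231 almost without exception, and in MDA-MB-468 more of them rose than fell. Of 73 mitosis and spindle genes, 72 fell in MDA-MB-231 and 0 rose, while in MDA-MB-468 26 rose and 14 fell. All 26 that rose in MDA-MB-468 fell in MDA-MB-231, which largely follows from the near-uniform fall there. For 22 of the 26 the glucose groups did not overlap in either line, against 443 of all 575 opposite genes. The difference of responses was called higher in MDA-MB-468 for 65 genes and lower for 2. The median response was -0.45 in MDA-MB-231 against 0.03 in MDA-MB-468, and the median difference was 0.52 with an interquartile range from 0.36 to 0.64. In a culture of many cells, fewer dividing cells and less RNA per dividing cell cannot be told apart.

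BIRC5 encodes survivin, a subunit of the chromosomal passenger complex, and lies at chr17:76210267-76221717 on GRCh37. Its normalized reads in MDA-MB-231 were 1418, 1545, 1459 and 1447 in low glucose and 981.8, 1098, 1023 and 1042 in high glucose. In MDA-MB-468 they were 1031, 1118, 1070 and 997 in low glucose and 1871, 1724, 1972 and 1937 in high glucose. Every high-glucose sample was below every low-glucose sample in the first line and above in the second. The response was -0.50 ± 0.05 (SE) in MDA-MB-231 against 0.83 ± 0.05 in MDA-MB-468, and the difference was 1.33 ± 0.07 (adjusted p 6.33e-12).

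PLK1, the polo-like kinase that drives entry into and passage through mitosis, lies at chr16:23688977-23701688. It measured 1741, 1635, 1730 and 1610 normalized reads in low-glucose MDA-MB-231 and 1282, 1223, 1225 and 1197 in high glucose. In MDA-MB-468 it measured 797.1, 766.4, 775.5 and 785 in low glucose and 1215, 1256, 1313 and 1335 in high glucose. The groups were apart in both lines, in opposite order, and the difference was 1.16 ± 0.05 (adjusted p 6.28e-12). CKAP2L, a spindle protein, showed the same order, from a mean of 798 ± 65.4 (SD, n = 4) to 542 ± 39.2 in MDA-MB-231 but from 180 ± 8.93 up to 286 ± 35.3 in MDA-MB-468. Its difference was 1.21 ± 0.11 (adjusted p 3.88e-08).

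CCNB1, the mitotic cyclin B1, fell by 0.37 in MDA-MB-231 and rose by 0.12 in MDA-MB-468 (adjusted p 0.00298), where the groups ran from 1589 to 1623 and from 1711 to 1815. This rise did not pass the threshold after a correction for transcript length, at 0.07. MKI67, the antigen used to mark cycling cells, fell in both lines, by 0.62 in MDA-MB-231 and by 0.18 in MDA-MB-468, where the call was likewise lost with that correction, at -0.07. TOP2A, the topoisomerase that untangles chromosomes, fell by 0.53 in MDA-MB-231 and gave 0.02 in MDA-MB-468 (adjusted p 0.552).

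The subgroups of the list are small, and their calls in MDA-MB-468 are read beside the 25.6% of all genes that rose there and the 23.4% that fell. All 16 cyclins and mitotic kinases fell in MDA-MB-231, and 7 of them rose in MDA-MB-468, with a median difference of 0.50. Of 5 anaphase genes, all fell in MDA-MB-231 and 4 rose in MDA-MB-468, with a median difference of 0.68. The 3 chromosomal passenger subunits gave a median difference of 0.86, and 2 of them moved in opposite directions. Of 12 centromere and kinetochore genes, 4 rose and 4 fell in MDA-MB-468, and of 11 kinesin motors 3 rose and 4 fell there. The 5 condensin subunits, which compact chromosomes, fell in MDA-MB-231, while 0 rose and 1 fell in MDA-MB-468.

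Promoters of members are shown because the cell cycle genes are known for 2 short elements there, the CCAAT box bound by NF-Y and the cell cycle homology element TTTGAA bound by the DREAM and MuvB complexes. The stretches are from RefSeq on GRCh38.p14 and end at the base before the annotated gene start. Capitals mark matches to the motifs on either strand, so that a CCAAT box on the other strand reads ATTGG and the cell cycle element there reads TTCAAA, and in E2F1 they also mark the E2F motif TTTGGCGC.
PLK1, chr16:23678789-23678888, plus strand: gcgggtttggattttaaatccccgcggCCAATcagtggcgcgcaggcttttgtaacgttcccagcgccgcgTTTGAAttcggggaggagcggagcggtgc
CKAP2L, chr2:112764610-112764709, minus strand: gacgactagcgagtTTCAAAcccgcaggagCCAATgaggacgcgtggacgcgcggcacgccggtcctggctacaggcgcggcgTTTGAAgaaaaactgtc
CCNB1, chr5:69167050-69167149, plus strand: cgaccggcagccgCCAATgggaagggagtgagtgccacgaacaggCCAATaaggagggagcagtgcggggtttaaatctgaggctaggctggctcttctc
E2F1, chr20:33686386-33686485, minus strand: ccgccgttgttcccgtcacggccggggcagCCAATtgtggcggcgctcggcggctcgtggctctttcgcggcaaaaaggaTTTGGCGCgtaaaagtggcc
In PLK1 the CCAAT box begins 73 bases before the start and the TTTGAA 29 bases before it. CKAP2L holds TTTGAA 17 bases and CCAAT 70 bases before the start, and in the CCNB1 stretch there are 2 CCAAT boxes, 87 and 55 bases before it.

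The motifs were counted in the 250 bases before the start, on both strands, in the promoters of 10080 genes tested that had an entry. CCAAT was found in 45 of 63 mitosis genes, against 35.5% of tested genes and 32% of all promoters in the table. TTTGAA was found in 31 of the 63, against 8.24% of tested genes and 13.3% of all promoters. Within the list TTTGAA was present in 9 of the 20 opposite genes with an entry and in 22 of the other 43, and CCAAT in 16 of the 20 and in 29 of the other 43. Both motifs together were present in 339 tested genes (3.36%), of which 28 (8.26%) fell in MDA-MB-231 and rose in MDA-MB-468, against 3.09% of the genes without both. Outside the mitosis list this share was 6.07%, or 19 of 313. These matches describe the sequence and do not show that a factor was bound.

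DNA replication genes followed the mitotic genes in MDA-MB-231 and were divided in MDA-MB-468. Of 63 genes tested out of 64, 54 fell in MDA-MB-231 and 0 rose, and in MDA-MB-468 19 rose and 20 fell. Opposite calls, all lower in MDA-MB-231, numbered 17, and 16 of them had no overlap in either line. The difference was higher in MDA-MB-468 for 43 and lower for 3, with a median of 0.33. The median response was -0.34 in MDA-MB-231 against -0.04 in MDA-MB-468.

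E2F1, the factor that turns on genes of S phase entry, lies at chr20:32263283-32274191 and measured 800.3, 798.5, 895.1 and 787.5 normalized reads in low-glucose MDA-MB-231. In high glucose it measured 553.7, 530.1, 529.4 and 567.8. In MDA-MB-468 the values were 990.1, 977.7, 934.8 and 960.2 in low glucose and 1037, 1124, 1172 and 1199 in high glucose. The groups did not overlap in either line, and the fall in MDA-MB-231 was deeper than the rise in MDA-MB-468, at -0.59 and 0.23. The difference was 0.82 ± 0.07 (adjusted p 1.12e-08). E2F8, an atypical E2F that represses other E2F targets, gave -0.67 and 0.25, and its difference of 0.92 was the larger of the 2.

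TYMS, which makes the thymidine nucleotide for DNA, fell from 1866 ± 20 to 1191 ± 19.9 normalized reads in MDA-MB-231 and rose from 2596 ± 56.1 to 2896 ± 121 in MDA-MB-468 (SD, n = 4). The difference was 0.80 (adjusted p 1.91e-11). MCM2, a subunit of the replicative helicase, fell by 0.29 and rose by 0.23. Of the 6 helicase subunits MCM2 to MCM7, all fell in MDA-MB-231 and 4 rose in MDA-MB-468. The largest of these differences was that of MCM5, at 0.79, a gene picked after its values were seen. CCNE2, a cyclin of S phase entry, fell by 0.78 in MDA-MB-231 and gave 0.14 in MDA-MB-468 (adjusted p 0.179).

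Not every group within the replication list moved this way. The 5 subunits of the origin recognition complex, which mark where copying begins, all fell in MDA-MB-468 and gave a median difference of -0.23, with 0 higher and 3 lower. Of 9 genes of the GINS complex, CDC45 and helicase loading, all fell in MDA-MB-231, 1 rose in MDA-MB-468 and 8 differences were called higher. Of 10 polymerase and primase genes 9 fell in MDA-MB-231, and 2 rose and 2 fell in MDA-MB-468, near the shares over all genes there (25.6% and 23.4%). The 6 nucleotide supply genes all fell in MDA-MB-231, while 2 rose and 3 fell in MDA-MB-468. The E2F motif TTTGGCGC was found in the promoters of 6 of 53 replication genes, against 0.893% of tested genes, and 0.55% of all promoters hold it. In the E2F1 stretch printed above it begins 20 bases before the start.

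DNA repair did not divide as replication did. Homologous recombination and Fanconi genes fell in both lines more often than they rose, 18 against 1 of 38 in MDA-MB-231 and likewise 17 against 3 in MDA-MB-468, with 1 opposite call. BRCA1, which directs repair of double strand breaks, fell by 0.32 in MDA-MB-231 and by 0.34 in MDA-MB-468, and the difference of -0.01 was within its error (adjusted p 0.914). BRCA2, a mediator of homologous recombination, fell by 0.37 and by 0.71, with a difference of -0.34 (adjusted p 0.0268). That last call was lost without low-glucose MDA-MB-231 replicate 1 (-0.29) and without high-glucose MDA-MB-468 replicate 1 (-0.28) or 3 (-0.30). Among 36 excision and mismatch repair genes, 3 fell in MDA-MB-231 and rose in MDA-MB-468. Of these PARP1, which senses DNA breaks, gave -0.27 and 0.38, and UNG, which removes uracil from DNA, gave -0.26 and 0.17.

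**Figure D3:**
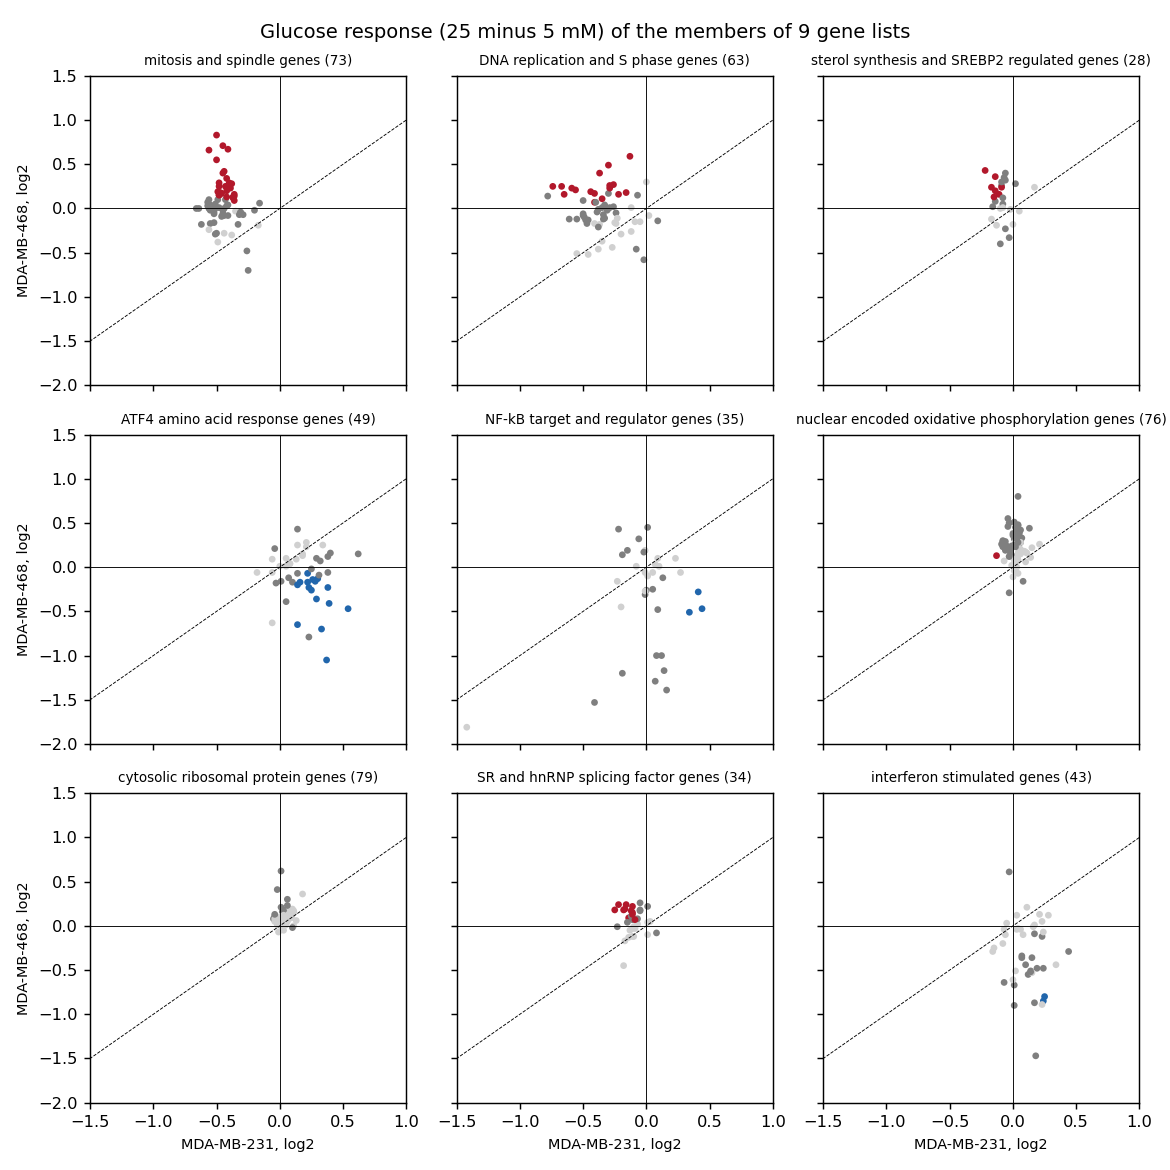
Response of every member of 9 gene lists, with MDA-MB-231 on the x axis and MDA-MB-468 on the y axis (25 minus 5 mM glucose, log2(value + 1)). Red points fell in MDA-MB-231 and rose in MDA-MB-468, blue points did the reverse, dark grey points had a called difference without opposite calls and light grey points had none. The 73 mitosis genes lie left of the vertical line almost without exception, with 26 red points above the horizontal line, and the ATF4 list holds 16 blue points.

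Sterol synthesis genes fell more often than they rose in MDA-MB-231 and did the reverse in MDA-MB-468. Of 28 genes tested out of 29, 12 fell and 1 rose in MDA-MB-231, whereas 15 rose and 6 fell in MDA-MB-468. Opposite calls numbered 7, all lower in MDA-MB-231, and all 7 had no overlap between glucose groups in either line. The difference was higher in MDA-MB-468 for 17 and lower for 3. The median responses were -0.09 and 0.13, and the median difference of 0.21 became 0.13 after quantile scaling.

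HMGCS1, the synthase that makes HMG-CoA at the head of the pathway, lies at chr5:43287572-43313614. Its normalized reads were 6975, 7340, 7187 and 7686 in low-glucose MDA-MB-231 and 6158, 6291, 6332 and 6184 in high glucose. In MDA-MB-468 they were 11241, 11742, 11170 and 11202 in low glucose and 15398, 15052, 15623 and 15072 in high glucose. The samples were apart in both lines and in opposite order. The responses were -0.22 ± 0.03 and 0.43 ± 0.03, and the difference was 0.66 ± 0.04 (adjusted p 8.9e-11).

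ACAT2, which joins acetyl-CoA units at the very start of the pathway, fell by 0.17 in MDA-MB-231 and rose by 0.24 in MDA-MB-468. Of the 9 enzymes up to squalene 4 moved in opposite directions and of the 11 from squalene to cholesterol 2 did. SREBF2, the factor that drives the pathway, fell in both lines, by 0.13 and by 0.19, with a difference of -0.06 (adjusted p 0.266).

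The HMGCS1 promoter is shown for its 2 CCAAT boxes, which here read ATTGG, in capitals, and begin 155 and 100 bases before the start (RefSeq, GRCh38.p14).
HMGCS1, chr5:43313413-43313592, minus strand: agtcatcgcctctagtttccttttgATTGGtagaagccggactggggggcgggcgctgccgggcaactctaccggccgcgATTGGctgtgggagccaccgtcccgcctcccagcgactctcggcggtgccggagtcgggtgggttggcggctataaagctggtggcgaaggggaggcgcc
CCAAT was found in 16 of 21 sterol gene promoters, and TTTGAA in 1.

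Fatty acid synthesis genes rose in MDA-MB-468 without a matching fall in MDA-MB-231. Of 25 genes tested out of 27, 13 rose and 3 fell in MDA-MB-468, and 4 rose and 5 fell in MDA-MB-231. FASN, the fatty acid synthase, rose from 35450 ± 1800 to 48754 ± 2010 normalized reads in MDA-MB-468 (SD, n = 4). In MDA-MB-231 it measured 60791 ± 4160 in low and 56853 ± 2980 in high glucose, a response of -0.10 (adjusted p 0.189). SCD, the desaturase, rose by 0.19 in MDA-MB-468 and gave 0.02 in MDA-MB-231 (adjusted p 0.704). GPAM, which begins glycerolipid synthesis, was the member with the reverse pattern. It rose by 0.26 in MDA-MB-231 and fell by 0.62 in MDA-MB-468, with samples of 299.5 to 339.3 against 371.3 to 414.5 in the first line and 357.2 to 396.1 against 230.1 to 264.4 in the second.

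The ATF4 amino acid response moved in the other sense, up in MDA-MB-231 and down in MDA-MB-468. Of 49 genes tested out of 52, 32 rose and 0 fell in MDA-MB-231, and 11 rose and 23 fell in MDA-MB-468. Opposite calls numbered 16, all higher in MDA-MB-231, and for 12 of them the groups did not overlap in either line. The difference was lower in MDA-MB-468 for 31 and higher for 2. The median responses were 0.21 and -0.07, and the median difference was -0.26.

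CTH, which makes cysteine from cystathionine, lies at chr1:70876901-70905534 and had the largest difference of the list among its named members. Its normalized reads in MDA-MB-231 were 748.1, 714.3, 694 and 721.7 in low glucose and 908.8, 898.3, 959.5 and 942.6 in high glucose. In MDA-MB-468 they were 340.8, 313, 356.2 and 296.4 in low glucose and 158.5, 170.4, 152.2 and 146.7 in high glucose. Every high-glucose sample lay above the low-glucose samples in MDA-MB-231 and below them in MDA-MB-468. The responses were 0.37 ± 0.06 and -1.05 ± 0.06, and the difference was -1.42 ± 0.09 (adjusted p 8.59e-11).

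SLC7A11, the transporter that brings cystine into the cell, measured 3621, 3618, 3833 and 3946 normalized reads in low-glucose MDA-MB-231 and 4826, 4797, 4703 and 4571 in high glucose. In MDA-MB-468 it measured 901.5, 937.9, 914.6 and 968.3 in low glucose and 620.2, 587.7, 570 and 521.8 in high glucose. The groups were apart in both lines, and the difference was -1.03 ± 0.06 (adjusted p 8.78e-11). CHAC1, which breaks down glutathione, rose from 980 ± 42.3 to 1428 ± 68.7 in MDA-MB-231 and fell from 319 ± 16 to 230 ± 17.5 in MDA-MB-468. Its responses were 0.54 and -0.47, of nearly equal size. ASNS, asparagine synthetase, rose by 0.30 and fell by 0.13, with samples of 2660 to 2862 in low-glucose and 2422 to 2654 in high-glucose MDA-MB-468, a narrow gap.

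The subgroups of the list were each divided in MDA-MB-468, where 25.6% of all genes rose and 23.4% fell. Of 8 transcription factors 4 rose in MDA-MB-231, while 2 rose and 3 fell in MDA-MB-468, and the difference was lower there for 4 and higher for 0. ATF4 itself rose in both lines, by 0.21 and by 0.23, and its difference of 0.02 (adjusted p 0.769) turned to -0.09 after quantile scaling. DDIT3, the stress factor CHOP, gave 0.23 in MDA-MB-231 (adjusted p 0.0809) and fell by 0.79 in MDA-MB-468. TRIB3, a pseudokinase that restrains ATF4, rose in both, by 0.38 and by 0.12, and the second rise lost its call after a correction for GC content, at 0.04. Of 12 tRNA synthetases 7 rose in MDA-MB-231, while 3 rose and 7 fell in MDA-MB-468, and 4 were opposite. Of 8 amino acid transporters 6 rose in MDA-MB-231, while 2 rose and 4 fell in MDA-MB-468, the same 4 with opposite calls. Of 6 serine and one-carbon enzymes 3 were opposite, and the median difference was -0.27.

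The promoters of ASNS and CHAC1 are shown for the element that ATF4 is known to bind with a C/EBP partner. Capitals mark TGATGNAA on either strand, 68 bases before the start in ASNS and, as TTGCATCA, 209 bases before it in CHAC1 (RefSeq, GRCh38.p14).
ASNS, chr7:97872409-97872508, minus strand: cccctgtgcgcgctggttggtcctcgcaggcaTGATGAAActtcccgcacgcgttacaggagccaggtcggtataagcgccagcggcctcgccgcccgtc
CHAC1, chr15:40953251-40953470, plus strand: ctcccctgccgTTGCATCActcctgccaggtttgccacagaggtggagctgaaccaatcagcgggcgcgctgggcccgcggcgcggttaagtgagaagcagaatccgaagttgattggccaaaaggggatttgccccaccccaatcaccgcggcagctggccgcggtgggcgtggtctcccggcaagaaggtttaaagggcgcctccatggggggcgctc
The motif was present in 6 of 39 ATF4 list promoters, against 1.31% of tested genes and 3.14% of all promoters. The 132 tested genes that held it gave a median difference of -0.07, against 0.01 for genes without it. Of the 132, 5 (3.79%) rose in MDA-MB-231 and fell in MDA-MB-468, against 1.37% of genes without it. However, 3 of these 5 were members of the ATF4 list, which was chosen with earlier results of these data known.

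Genes of the unfolded protein response, a related stress program of the endoplasmic reticulum, had few opposite calls. Of 43 genes 14 rose and 0 fell in MDA-MB-231, and 22 rose and 5 fell in MDA-MB-468, with 9 that rose in both and 2 opposite. The difference was higher in MDA-MB-468 for 16 and lower for 5. The median difference was 0.06, and it was -0.02 after quantile scaling. HSPA5, the chaperone BiP, gave 0.08 in MDA-MB-231 against 0.23 in MDA-MB-468. XBP1, a factor of the response, rose by 0.19 and by 0.34. The 2 opposite genes were EDEM1, which marks misfolded glycoproteins for disposal, with 0.20 and -0.38, and HERPUD1, a part of the degradation machinery, with 0.33 and -0.13. ATF6, a membrane-bound sensor named here after its values were seen, rose by 0.97 in MDA-MB-468 and gave -0.03 in MDA-MB-231 (adjusted p 0.704). Its samples there were 476.1, 524.2, 508.5 and 534.4 in low glucose and 962.4, 1037, 1043 and 950.8 in high glucose, while the MDA-MB-231 means were 1933 ± 51.9 and 1893 ± 61.6.

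NF-kB targets fell in MDA-MB-468, and a few of them rose in MDA-MB-231. Of 35 genes tested out of 53, 15 fell and 4 rose in MDA-MB-468, and 4 rose and 2 fell in MDA-MB-231. The difference was lower in MDA-MB-468 for 15 and higher for 6. Opposite calls numbered 3, and without low-glucose MDA-MB-231 replicate 3 they numbered 5. The median difference was -0.25, which became -0.16 without high-glucose MDA-MB-231 replicate 3. Of the members not tested, 6 reached the minimum in MDA-MB-231 only, 1 in MDA-MB-468 only and 5 in neither, and 6 had no row under their symbol.

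NFKBIA, the inhibitor that holds NF-kB in the cytoplasm and is itself an NF-kB target, lies at chr14:35870285-35873955. Its normalized reads were 635.2, 692.8, 662.7 and 660.1 in low-glucose MDA-MB-231 and 849.5, 884.6, 822 and 801.8 in high glucose. In MDA-MB-468 they were 489.5, 435.8, 489.3 and 504.8 in low glucose and 324.7, 334.3, 366.3 and 316.9 in high glucose. The groups did not overlap in either line. The responses were 0.34 ± 0.06 and -0.51 ± 0.06, and the difference was -0.86 ± 0.08 (adjusted p 3.22e-08).

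ICAM1, an adhesion molecule that binds leukocytes, measured 986.1, 984.4, 1039 and 866.7 normalized reads in low-glucose MDA-MB-231 and 1295, 1310, 1322 and 1310 in high glucose. In MDA-MB-468 it measured 1894, 1899, 1903 and 1770 in low glucose and 1322, 1335, 1347 and 1366 in high glucose. The high-glucose samples of both lines lay close together, reached from below in MDA-MB-231 and from above in MDA-MB-468, and the difference was -0.91 ± 0.06 (adjusted p 3.5e-10). CSF1, a macrophage growth factor, was the third opposite gene, with 0.41 and -0.28.

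Other members fell in MDA-MB-468 without passing the test in MDA-MB-231. TNFAIP3, the feedback inhibitor A20, fell by 1.20 in MDA-MB-468 and gave -0.19 in MDA-MB-231 (adjusted p 0.299). CXCL8, the chemokine interleukin 8, fell by 1.53 and gave -0.41 (adjusted p 0.0568), from a low level of 52.99 to 69.68 normalized reads in low-glucose MDA-MB-468. Among genes picked after their values were seen, BIRC3, an inhibitor of cell death, fell from 1067 ± 49.2 to 406 ± 34.5 in MDA-MB-468. NFKB2 and RELB, the subunits of the noncanonical NF-kB pathway, fell by 1.17 and by 1.0 there, and in MDA-MB-231 they gave 0.14 (adjusted p 0.0629) and 0.12 (adjusted p 0.402). CXCL1, a chemokine, gave a difference of -1.37 (adjusted p 0.0151) at 1.944 to 15.48 normalized reads in MDA-MB-468, close to the floor. It passed the filter in that line through its low-glucose samples alone.

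The NFKBIA promoter is shown for a kappa B site 81 bases before the start, in capitals. The motif was searched on both strands as GGG, any 2 bases and TTTCC, so the site here reads GGAAATTCCC (RefSeq, GRCh38.p14).
NFKBIA, chr14:35404750-35404849, minus strand: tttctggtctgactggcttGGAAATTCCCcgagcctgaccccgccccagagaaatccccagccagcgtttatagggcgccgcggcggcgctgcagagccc
The motif was found in 9 of 28 NF-kB list promoters, 1.99% of tested genes and 1.73% of all promoters.

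Interferon stimulated genes, which respond to viral RNA and cytokines, were lower in MDA-MB-468 and showed small rises in MDA-MB-231. Of 43 genes tested out of 46, 19 fell and 3 rose in MDA-MB-468, and 5 rose and 1 fell in MDA-MB-231. The median responses were 0.12 and -0.29, and the median difference of -0.42 was the lowest of the lists with at least 10 genes. RIGI, the cytoplasmic RNA sensor, measured 2213, 2351, 2279 and 2290 normalized reads in low-glucose MDA-MB-231 and 2678, 2802, 2616 and 2692 in high glucose. In MDA-MB-468 it measured 354.3, 371.6, 335.2 and 335 in low glucose and 213.9, 187.9, 185.4 and 187.1 in high glucose. The groups were apart in both lines, and the difference was -1.09 ± 0.07 (adjusted p 1.24e-10).

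RIGI and MX1 were the 2 opposite calls of the list. MX1, an antiviral GTPase, rose by 0.25 in MDA-MB-231, where the groups overlapped, and fell by 0.80 in MDA-MB-468. Its rise lost the call without low-glucose MDA-MB-231 replicate 2 (0.21), which left 1 opposite call in the list, and leaving out low-glucose MDA-MB-468 replicate 2 gave 5. The interferon motif, which is GAAA, any 2 bases and GAAA again, was found in the promoters of 17 of 33 members, against 2.26% of tested genes and 3.02% of all promoters. Neither of the opposite genes with an entry held it.

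**Figure D4:**
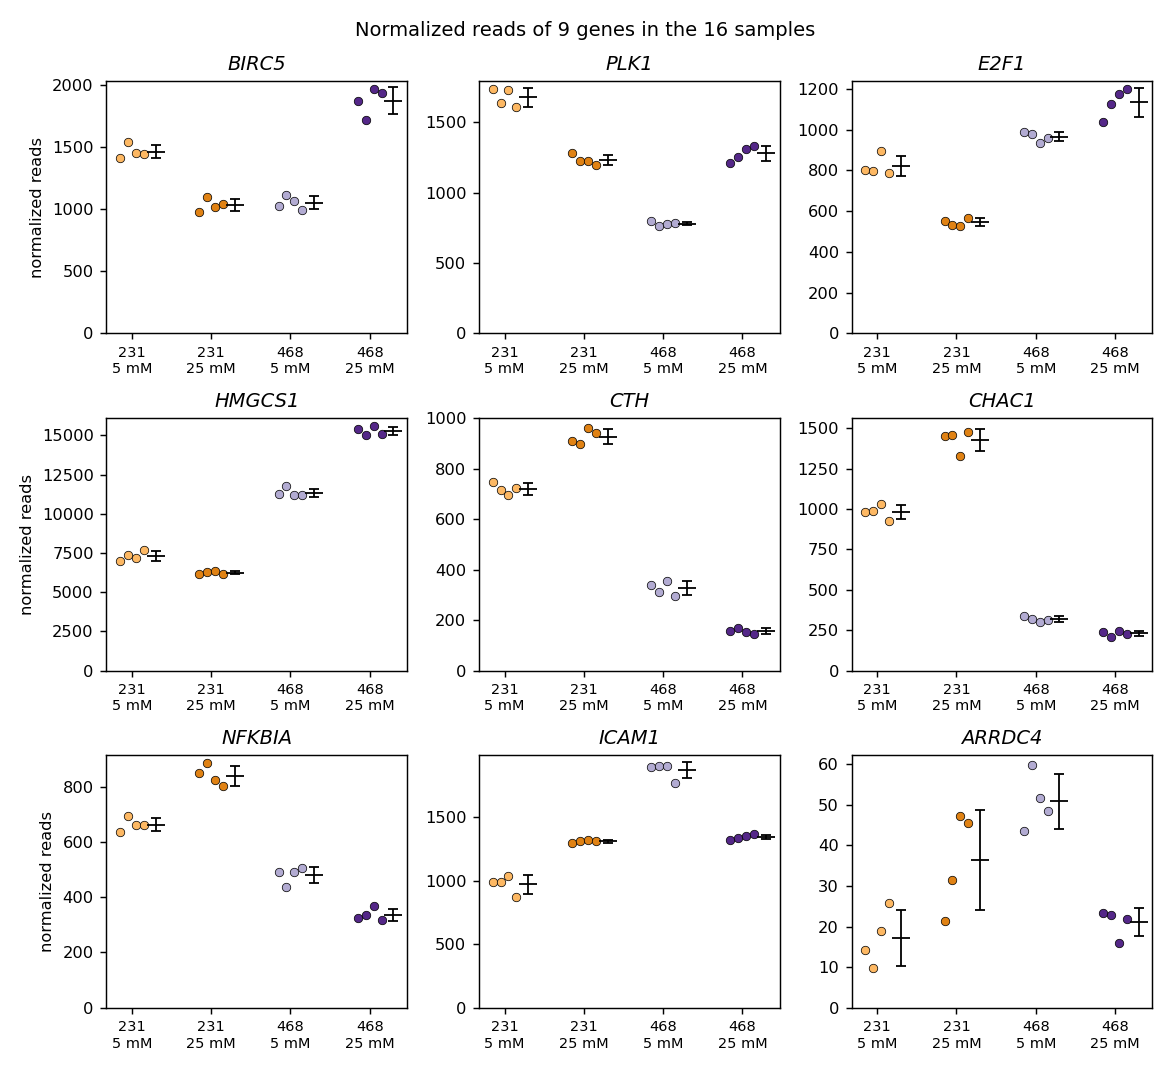
Normalized reads of 9 genes in each of the 16 samples, with 1 panel per gene, the 4 groups along the x axis and normalized reads on the y axis. Points are samples and bars the mean with its SD (n = 4). BIRC5, PLK1, E2F1 and HMGCS1 go down from low to high glucose in MDA-MB-231 and up in MDA-MB-468, and CTH, CHAC1, NFKBIA, ICAM1 and ARRDC4 go up and then down, with overlapping samples only for ARRDC4 in MDA-MB-231.

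Oxidative phosphorylation genes rose in MDA-MB-468 with little movement in MDA-MB-231, so they differed between the lines without being opposite. Of 76 nuclear encoded genes, 62 rose and 3 fell in MDA-MB-468, and 3 rose and 1 fell in MDA-MB-231. The difference was higher in MDA-MB-468 for 45 and lower for 2, and the median responses were 0.03 and 0.23. NDUFB8, a complex I subunit, rose from 348 ± 18.4 to 454 ± 20.6 normalized reads in MDA-MB-468 and measured 791 ± 45.2 and 789 ± 46.9 in MDA-MB-231. By complex, 28 of 38 complex I genes, 9 of 10 of complex IV and 14 of 15 of complex V rose in MDA-MB-468.

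SDHA, the catalytic subunit of complex II, was the only opposite call of this list, with -0.13 and 0.13, and its fall lost the call without low-glucose MDA-MB-231 replicate 3 (-0.10) or high-glucose replicate 2 (-0.12). The 13 genes encoded in mitochondrial DNA moved the other way, since all 13 fell in MDA-MB-468 and 5 fell in MDA-MB-231, with medians of -0.24 and -0.15. Mitochondrial ribosomal protein genes rose in MDA-MB-468 for 46 of 76, with a median difference of 0.14.

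Of 79 cytosolic ribosomal protein genes, 47 rose and 1 fell in MDA-MB-468, and 5 rose and 0 fell in MDA-MB-231. The difference was higher in MDA-MB-468 for 11 (13.9%) and lower for 1 (1.27%), both smaller shares than over all genes. The median difference was 0.05 and turned to -0.04 after quantile scaling. RPL3 and RPS6, which have processed copies elsewhere in the genome and are therefore uncertain, gave differences of 0.09 (adjusted p 0.148) and 0.02, and both turned negative after quantile scaling, at -0.11 and -0.12.

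Transcript length moved with these results. The median length was 785 bases for ribosomal and 760 for oxidative phosphorylation genes against 3126 over all genes tested. With genes divided into 5 bins of transcript length, the shortest bin had a median response of 0.05 in MDA-MB-231 against 0.08 in MDA-MB-468, and the longest had -0.05 and -0.08. After a correction for transcript length the median difference was 0.18 for oxidative phosphorylation, 0.00 for the ribosome, 0.49 for mitosis and -0.29 for the ATF4 list. Opposite calls then numbered 20 in mitosis, 14 in replication, 8 in sterol synthesis and 18 in the ATF4 list, against 26, 17, 7 and 16. Mitosis genes had a median length of 3095.

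Several other lists held opposite genes. SR and hnRNP splicing factors, which choose exons, fell in MDA-MB-231 for 20 of 34 and rose in MDA-MB-468 for 16, and 11 of them did both, although only 5 after quantile scaling. Of 19 hnRNP genes 8 were opposite. HNRNPA2B1, an RNA-binding protein of the hnRNP core, fell from 16067 ± 401 to 13784 ± 137 normalized reads in MDA-MB-231 and rose from 20706 ± 621 to 24368 ± 337 in MDA-MB-468. HNRNPD, which binds AU-rich elements, gave -0.25 and 0.18.

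Among 37 collagen, integrin and laminin genes, 17 fell and 2 rose in MDA-MB-231, and 12 rose and 16 fell in MDA-MB-468. Opposite calls numbered 6, which became 3 without low-glucose MDA-MB-231 replicate 1 and 4 without its replicate 3, high-glucose MDA-MB-231 replicate 2 or 3, or high-glucose MDA-MB-468 replicate 4. LAMC1, a laminin chain of basement membranes, fell from 5148 ± 216 to 4329 ± 90.6 normalized reads in MDA-MB-231 and rose from 1251 ± 27.6 to 1572 ± 44.9 in MDA-MB-468. Its difference was 0.58 (adjusted p 3.9e-09).

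Glycolysis genes had 4 opposite calls of 26, all lower in MDA-MB-231, and 7 without low-glucose MDA-MB-231 replicate 4. TPI1, triosephosphate isomerase, fell by 0.16 and rose by 0.30. PFKFB3, which makes the activator of phosphofructokinase, fell by 0.21 and rose by 0.45. SLC2A3, the neuronal-type glucose transporter picked after its values were seen, was low in MDA-MB-468, at 20.66 to 27.65 normalized reads in low glucose and 1.092 to 6.805 in high glucose, and measured 1351 ± 24.2 and 1398 ± 79 in MDA-MB-231. In MDA-MB-468 it passed the filter through its low-glucose samples alone. Of 8 hexosamine pathway genes 4 rose in MDA-MB-231, and 4 differences were lower in MDA-MB-468.

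Other lists had members that moved the same way in both lines. Of 22 YAP target genes 11 fell in MDA-MB-231, 17 fell in MDA-MB-468 and 10 fell in both, with medians of -0.17 and -0.52. Of 28 NRF2 and antioxidant genes 13 rose in each line, but only 6 of these rose in both, and the difference was higher in MDA-MB-468 for 6 and lower for 7. Of the 13 that rose in MDA-MB-231, 3 fell in MDA-MB-468, among them UGDH, which turns UDP-glucose into UDP-glucuronate, with 0.17 and -0.17. TFRC, the transferrin receptor that imports iron, fell by 0.95 in MDA-MB-231 and by 0.24 in MDA-MB-468, a difference of 0.71. VIM gave -0.09 in MDA-MB-231 and 0.26 at its low level in MDA-MB-468, and its difference of 0.35 ± 0.20 did not pass the threshold (adjusted p 0.187).

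ARRDC4, an arrestin that limits glucose uptake and is turned on by the glucose sensor MondoA, lies at chr15:98503933-98517063 and went opposite ways at a low level. Its normalized reads were 14.29, 9.785, 19 and 25.7 in low-glucose MDA-MB-231 and 21.41, 31.56, 47.37 and 45.65 in high glucose. In MDA-MB-468 they were 43.49, 59.72, 51.64 and 48.5 in low glucose and 23.33, 22.94, 16.02 and 21.92 in high glucose. The groups overlapped in MDA-MB-231 and were apart in MDA-MB-468. The responses were 1.06 ± 0.27 (adjusted p 0.0107) and -1.24 ± 0.27 (adjusted p 0.00081), and the difference was -2.29 ± 0.39 (adjusted p 7.92e-05).

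The ARRDC4 promoter is shown for the CACGTG core of the carbohydrate response element, in capitals, 210 bases before the start (RefSeq, GRCh38.p14).
ARRDC4, chr15:97960483-97960702, plus strand: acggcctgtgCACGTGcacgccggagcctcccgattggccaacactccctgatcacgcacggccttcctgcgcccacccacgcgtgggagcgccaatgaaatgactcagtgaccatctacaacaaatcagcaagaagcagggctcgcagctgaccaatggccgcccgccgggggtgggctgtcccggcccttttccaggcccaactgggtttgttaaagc
CACGTG was found in 9.01% of tested genes, in 6.34% of all promoters and in 3 of 9 promoters of the glucose responsive gene list. Of the 10 genes of that list the difference was lower in MDA-MB-468 for 4 and higher for 1, and ARRDC4 was the only opposite call.

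Outside the core lists, the opposite genes with the largest differences came from many functions. They were picked among those with at least 5 CPM in each line and no overlap of the glucose groups in either line. MT1E, a metallothionein that binds zinc, had the largest positive difference of these. It measured 411.6, 449.1, 422.4 and 431.8 normalized reads in low-glucose MDA-MB-231 and 273.4, 254.5, 244.3 and 249.2 in high glucose. In MDA-MB-468 it measured 41.91, 56.4, 40.26 and 51.2 in low glucose and 137.1, 142, 119 and 166.9 in high glucose. The difference was 2.30 ± 0.15 (adjusted p 3e-10). The groups were apart in both lines, which the choice required. The minimum of 5 CPM was a mean over both glucose groups of a line, and in MDA-MB-468 MT1E met it through its high-glucose samples. Metallothionein genes resemble each other in sequence, so reads may be shared between them.

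NEURL1B, a ubiquitin ligase of the Notch pathway, fell from 217 ± 13.5 to 124 ± 11.7 normalized reads in MDA-MB-231 and rose from 309 ± 16.7 to 595 ± 46.7 in MDA-MB-468. The difference was 1.75 ± 0.11. In the other direction SWT1, an RNA endonuclease, had the largest difference, -1.89 ± 0.15. It measured 119 ± 13.3 and 150 ± 11.4 in MDA-MB-231 and fell from 266 ± 29.2 to 89.7 ± 6.69 in MDA-MB-468. The rise of 0.33 in MDA-MB-231 lost its call without low-glucose replicate 1 (0.26) or 3 (0.32) or high-glucose replicate 1 (0.29) or 3 (0.31). RTN2, a reticulon of the endoplasmic reticulum, gave 0.30 and -1.18. BPGM, which makes 2,3-bisphosphoglycerate, rose from 163 ± 10.1 to 203 ± 12.5 in MDA-MB-231 and fell from 799 ± 23.1 to 399 ± 22.9 in MDA-MB-468.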

How the data were processed

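RNA was sequenced from 16 samples, grouped by the line and glucose level in their labels. The authors trimmed reads with Trimmomatic, aligned them with TopHat to hg19 with Ensembl 70 annotation and used DESeq2 and edgeR. The labels' processing notes name hg38 instead, so the build of the counts is not settled, and the counting program and its use of strand are not given in the sources used here. Reads of a gene and an overlapping or antisense neighbor therefore cannot be told apart. Each deposited value is a normalized signal, that is, a gene's read count which the authors scaled by the size factor of its library. Divided by the value of 1 read in its library, 100% of values were whole (tolerance 0.001 reads, largest deviation 5.82e-05), so reads could be recovered and scaled to CPM.

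Symbols were found for 16633 and transcript lengths for 17647 of 18332 gene IDs in GENCODE 44 lifted to GRCh37, whose 1-based coordinates are given. Of the 13573 genes kept, 12810 had a symbol. The 4 group means were fitted over all 16 samples with limma 3.58.1 in R 4.3.3 (lmFit, then eBayes with trend) on log2(value + 1). Tests were two-sided with Benjamini-Hochberg adjustment over the 13573 genes and a threshold of 0.05. A gene was opposite when both line contrasts passed with opposite signs. Lists are described by counts and medians, without a set test, and their members are not replicates. The steps were tested on simulated data.

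Named genes are a fixed list of 29, the 5 largest differences in each direction among opposite genes with at least 5 CPM in each line and no overlap, up to 3 opposite members of each of 9 core lists and up to 2 of each further list described as opposite. Another 11 genes were picked after their values were seen and are not part of that rule. A few genes that the rule picks are not reported here. The members and lists were chosen with earlier results of these data known. Promoter sequences are from RefSeq (GRCh38.p14), with entries for 10080 genes tested, and the first listed promoter of a gene was used.

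The alternatives were other pseudocounts (0.5 and 8), filters, scalings (TMM, median of ratios, quantile), tests (edgeR 4.0.16 and DESeq2 1.42.0 on recovered reads, a gene-wise linear model, each line alone), a replicate block, corrections for transcript length and GC content, a threshold of 0.01, and leaving out each replicate in turn. Floors cover counting error only.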

Additional observations from a re-analysis of the deposited data

Results flagged for a closer look

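The difference of responses between the lines passed the threshold for 5183 genes, of which 575 moved in opposite directions, and for 72 of the 78 genes examined singly. Of these 78, 51 had opposite calls, and for 46 of them the glucose groups did not overlap in either line. Apart from the fixed list, these genes were picked for their opposite calls or after their values were seen. Their counts therefore largely follow from that choice. Over all genes tested 38.2% had a called difference, and 443 of the 575 opposite genes had no overlap. Some calls were weak, since ACSL3 lost its MDA-MB-231 call in 25 of 33 alternatives and HSPA1A in 16. COL4A1 lost its MDA-MB-468 call in 17. The values that follow are differences of responses, MDA-MB-468 minus MDA-MB-231, on the log2 scale.

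Among cell division genes the difference was 1.33 for BIRC5, 1.21 for CKAP2L, 1.16 for PLK1, 0.85 for CCNA2 (a cyclin of S phase and mitosis), 0.55 for TOP2A, 0.50 for CCNB1 and 0.44 for MKI67. Among replication genes it was 0.92 for E2F8 and also for CCNE2, 0.82 for E2F1, 0.80 for TYMS, 0.79 for MCM5 and 0.51 for MCM2. The repair genes gave 0.65 for PARP1, 0.42 for UNG and -0.34 for BRCA2.

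In lipid synthesis the difference was 0.66 for HMGCS1, 0.56 for FASN, 0.41 for ACAT2, 0.28 for ACSL3 (a fatty acid activating enzyme) and 0.18 for SCD, and GPAM gave -0.87. In glucose metabolism it was 0.65 for PFKFB3, 0.46 for TPI1, -0.34 for UGDH, -1.32 for BPGM, -2.29 for ARRDC4 and -2.62 for SLC2A3, the last at 1.092 to 6.805 normalized reads in high-glucose MDA-MB-468. The respiratory chain genes NDUFB8 and SDHA gave 0.39 and 0.26.

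In the amino acid and stress programs the difference was -1.42 for CTH, -1.03 for SLC7A11, -1.02 for DDIT3, -1.01 for CHAC1, -0.43 for ASNS and -0.26 for TRIB3. In the unfolded protein response it was -0.58 for EDEM1, -0.46 for HERPUD1, 0.15 for HSPA5, 0.15 for XBP1 and 1.0 for ATF6. The heat shock genes HSPH1 and HSPA1A gave -0.54 and -0.34, where HSPA1A has a near-identical copy and is uncertain. The lysosomal genes ATP6V0A1 and NEU1 gave -0.51 and -0.34.

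In the inflammatory programs the difference was -1.56 for BIRC3, -1.37 for CXCL1, -1.31 for NFKB2, -1.12 for CXCL8, -1.11 for RELB, -1.01 for TNFAIP3, -0.91 for ICAM1, -0.86 for NFKBIA and -0.69 for CSF1. RIGI gave -1.09 and MX1 -1.05. The immediate early genes KLF4 and ZFP36 gave -0.71 and -0.44.

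Other genes were MT1E (2.30), MT2A (1.03), MT1X (1.01) and the zinc exporter SLC30A1 (0.88), NEURL1B (1.75), MAMLD1 (1.37), SEMA6B (1.35), TFRC (0.71), COL4A1 (0.64), LAMC1 (0.58), HNRNPA2B1 (0.46), HNRNPD (0.43), RTN2 (-1.49) and SWT1 (-1.89).

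A sample far from its 3 partners, by Dixon's ratio of its gap to the whole range of the group, was found in 22 of 316 groups examined, where chance gives about 1 in 20. In low-glucose MDA-MB-231 the ratio was 0.882 for E2F1, 0.902 for TPI1, 0.884 for TFRC, 0.868 for BPGM and 0.899 for SLC2A3. In high-glucose MDA-MB-231 it was 0.938 for ACAT2, 0.851 for CXCL8, 0.875 for RPS6, 0.921 for MAMLD1, 0.877 for UNG, 0.918 for MX1 and 0.953 for BIRC3. In low-glucose MDA-MB-468 it was 0.849 for TOP2A, 0.875 for HMGCS1, 0.922 for SREBF2, 0.872 for RTN2, 0.934 for ICAM1, 0.861 for CSF1 and 0.873 for PARP1. In high-glucose MDA-MB-468 it was 0.86 for SWT1, 0.913 for RIGI and 0.89 for MT2A.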

How the results depend on the processing

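Over 33 alternatives, 6900 of 7052 values of the named genes kept their direction and side of the threshold, 129 fell short of it, 4 newly passed and 19 changed sign, and 20 of 214 contrasts lost their call at least once. A threshold of 0.01 left 1210 calls in MDA-MB-231 and 297 opposite genes. In the lists it left 21 opposite calls in mitosis, 12 in replication, 4 in sterol synthesis and 14 in the ATF4 list. Quantile scaling gave 23, 14, 5 and 19 in the same lists. edgeR gave 644 opposite genes (544 shared with the 575) and DESeq2 637 (526 shared). Quantile scaling gave 507 (439 shared) and the length correction 650 (452 shared), and in MDA-MB-231 these raised the share of calls that were higher from 37.3% to 47.3% and 43.9%. Median differences after quantile scaling were 0.47 (mitosis), 0.31 (replication), 0.13 (sterol), -0.29 (ATF4 list), -0.02 (unfolded protein response) and -0.04 (ribosome). With the length correction, with or without the replicate block, they were 0.49 (mitosis), -0.29 (ATF4 list), 0.03 (unfolded protein response), 0.00 (ribosome) and 0.18 (oxidative phosphorylation). With the GC correction they were 0.31 (replication), 0.16 (sterol), 0.09 (fatty acid), -0.30 (ATF4 list), 0.03 (unfolded protein response) and 0.19 (oxidative phosphorylation). A minimum of 5 CPM gave -0.19 for the NF-kB list. The cause of these shifts was not tested.

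Sign changes concerned differences near 0. ATF4 gave -0.09 (quantile) and -0.03 (length, with or without the block, and GC). RPL3 gave -0.11 and RPS6 -0.12 (quantile), with an MDA-MB-468 response of -0.02, and RPS6 gave -0.02 (length, with or without the block). BRCA1 gave 0.01 (length, with or without the block, and GC).

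Leaving out each replicate in turn gave 4836 to 5357 differences of responses, 1680 to 2095 calls in MDA-MB-231, 6044 to 6832 in MDA-MB-468 and 471 to 603 opposite genes. Median differences ran from 0.50 to 0.54 (mitosis), 0.31 to 0.35 (replication), 0.18 to 0.23 (sterol), 0.13 to 0.17 (fatty acid), -0.28 to -0.23 (ATF4 list), 0.05 to 0.07 (unfolded protein response) and -0.27 to -0.16 (NF-kB list). Differences ran from -0.06 to 0.03 for BRCA1, 0.00 to 0.04 for ATF4 and -0.01 to 0.04 for RPS6.

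Same-numbered samples did not deviate together (correlations from -0.0498 to 0.0344), so the numbers do not pair them. With the replicate block 2759 differences were higher and 2140 lower, and 453 of the 575 opposite genes were called again. Where a group is near the floor of 3 reads, as for CXCL1 in MDA-MB-468, counting error limits the value.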

Other observations

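MT2A, MT1X and SLC30A1 were picked after their values were seen, so what they share with MT1E follows from that choice. MT2A, a metallothionein that binds zinc and copper, measured 6432, 6339, 6810 and 5792 normalized reads in low-glucose MDA-MB-231 and 4301, 4359, 3996 and 4526 in high glucose. In MDA-MB-468 it measured 1478, 1188, 1305 and 1280 in low glucose and 1704, 1852, 1848 and 1866 in high glucose. The groups were apart in both lines. SLC30A1, which exports zinc and is turned on by the same zinc-sensing factor, fell from 474 ± 42.8 to 359 ± 31.1 in MDA-MB-231 and rose from 346 ± 26.1 to 484 ± 15.1 in MDA-MB-468 (SD, n = 4). MT1X gave -0.15 in MDA-MB-231 (adjusted p 0.332) and rose by 0.86 in MDA-MB-468.

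CDKN1A, the cell cycle inhibitor p21, and the cell death genes below are stress markers outside the rule for named genes. CDKN1A fell in MDA-MB-231, as most cell division genes did, and rose in MDA-MB-468, where 26 of 73 mitosis genes rose and 14 fell. It fell from 3503 ± 99.1 to 3067 ± 102 normalized reads in MDA-MB-231 and rose from 547 ± 45.1 to 971 ± 71.8 in MDA-MB-468, a difference of 1.02 (adjusted p 1.38e-09). The cell death genes PMAIP1 and TNFRSF10B fell in MDA-MB-468 by 0.60 and by 0.32, and gave 0.03 (adjusted p 0.865) and 0.10 (adjusted p 0.108) in MDA-MB-231.

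The counts below are read beside the shares over all genes, and some lie near them. In MDA-MB-468 25.6% of all genes rose and 23.4% fell, and in MDA-MB-231 5.63% rose and 9.47% fell. Differences were higher in MDA-MB-468 for 21.3% and lower for 16.9%. Of 36 immediate early and AP-1 genes, 19 fell and 5 rose in MDA-MB-468, and 3 rose and 5 fell in MDA-MB-231. Of 23 hypoxia inducible factor targets, the difference was higher in MDA-MB-468 for 13 and lower for 5, with 0 opposite calls. Of 17 circadian clock genes, 8 fell and 2 rose in MDA-MB-468, with medians of -0.04 in MDA-MB-231 against -0.26 in MDA-MB-468. Of 50 lysosome and V-ATPase genes, the difference was lower in MDA-MB-468 for 15 and higher for 5. Of 9 aryl hydrocarbon receptor genes, 6 fell and 1 rose in MDA-MB-468, and 1 rose and 2 fell in MDA-MB-231, with 0 opposite calls. Of 31 proteasome subunit genes, 9 differences were higher and 0 lower, with medians of 0.01 and 0.02.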
